A study of Mus musculus with 8 samples.

Results

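The imprinted growth genes described here are H19, Igf2, Igf2r, Meg3, Peg3, Plagl1, Cdkn1c, Grb10, Mest and Ndn, taken by gene symbol from a table of RNA levels in the left ventricle of mdx and wild-type mice. All 10 were found, as 22 of the 33027 transcripts and 10 of the 14578 genes. The genes were chosen by symbol after the level of H19 in these libraries was known, which was lower in both mdx groups than in WT, so H19 heads the set and is described without a test. Total RNA was sequenced in 8 libraries from mice of 6 months on a C57 background: 3 mdx sln+/- libraries, 3 mdx libraries and 2 wild-type (WT) libraries. The mdx mouse carries a mutation of Dmd and lacks full-length dystrophin, the protein that ties the muscle cytoskeleton to the membrane. The mdx sln+/- mice carry the same mutation and in addition 1 inactive copy of Sln, which encodes sarcolipin, an inhibitor of the calcium pump of the sarcoplasmic reticulum. The design asks which molecular changes accompany the heart disease of mdx mice and how reduced sarcolipin alters them. Whether each library came from 1 animal is not given in the sources used here, so the spread behind each p-value is that between libraries and may be technical in part.

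Imprinted genes are read mainly from 1 of the 2 parental copies, and which copy is silent goes back to DNA methylation marks set in the egg or the sperm. H19, Igf2r, Meg3, Cdkn1c and, in most tissues, Grb10 are expressed from the maternal copy, whereas Igf2, Peg3, Plagl1, Mest and Ndn are expressed from the paternal copy. Many of the paternally expressed genes promote growth before birth and many of the maternally expressed ones restrain it. In mice several of them form a network that is active in fetal and neonatal organs and is turned down after birth. H19 and Igf2 are neighbours that share enhancers, and the protein CTCF bound between them on the maternal copy directs these enhancers to H19.

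H19 lies on chromosome 7 from 142575529 to 142578143 on the minus strand (GRCm38, GENCODE M21), and Igf2 on the same strand from 142650766 to 142666816. An exon of H19 holds the hairpin of miR-675, a small RNA reported to slow growth of the mouse placenta. Its mature forms are shown because transcripts H19-202 and H19-205 include that exon, whereas the shorter H19-201 starts downstream of the hairpin; the levels of the mature forms were not analysed here. The capitals mark the seed, bases 2 to 8, which pairs with targets, and the seeds of the 2 forms differ (RefSeq, GRCm38.p6).
miR-675-5p: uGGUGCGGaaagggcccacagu
miR-675-3p: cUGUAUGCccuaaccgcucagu

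Single transcripts of Igf2 and Grb10 are described below by their start, so the starts in question are shown with 250 bases before and 50 after them, on the minus strand, and CG pairs in capitals (RefSeq, GRCm38.p6). The upstream Igf2 window, chr7:142661222-142661521, is 34 bases from the start of transcript Igf2-204 and holds 14 CG pairs. The downstream window, chr7:142657447-142657746, begins transcript Igf2-201 and holds 7, the median of all 32851 windows being 7.0. The upstream Grb10 window, chr11:12037371-12037670, lies 19 bases from the start of Grb10-201 and holds 45 CG pairs, a number reached by 1.93% of all windows. The downstream window, chr11:12027922-12028221, begins Grb10-203 and holds 9.
Igf2, upstream start: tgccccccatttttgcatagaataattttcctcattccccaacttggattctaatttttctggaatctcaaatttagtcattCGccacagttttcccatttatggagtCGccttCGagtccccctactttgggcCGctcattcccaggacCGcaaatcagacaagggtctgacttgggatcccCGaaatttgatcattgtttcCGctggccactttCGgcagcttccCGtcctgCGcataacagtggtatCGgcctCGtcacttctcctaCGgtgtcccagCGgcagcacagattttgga
Igf2, downstream start: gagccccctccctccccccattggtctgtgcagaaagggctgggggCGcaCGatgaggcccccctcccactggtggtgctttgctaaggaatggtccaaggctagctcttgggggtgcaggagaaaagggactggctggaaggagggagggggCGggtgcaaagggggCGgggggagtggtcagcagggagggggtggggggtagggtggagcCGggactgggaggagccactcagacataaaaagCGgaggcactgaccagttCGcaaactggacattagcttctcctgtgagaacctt
Grb10, upstream start: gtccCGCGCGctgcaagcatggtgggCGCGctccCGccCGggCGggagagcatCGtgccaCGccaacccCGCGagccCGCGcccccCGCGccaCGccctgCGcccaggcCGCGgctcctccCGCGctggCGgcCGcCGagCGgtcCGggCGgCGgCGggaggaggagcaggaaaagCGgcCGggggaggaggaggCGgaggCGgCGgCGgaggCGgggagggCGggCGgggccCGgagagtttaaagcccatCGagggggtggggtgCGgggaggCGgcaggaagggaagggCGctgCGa
Grb10, downstream start: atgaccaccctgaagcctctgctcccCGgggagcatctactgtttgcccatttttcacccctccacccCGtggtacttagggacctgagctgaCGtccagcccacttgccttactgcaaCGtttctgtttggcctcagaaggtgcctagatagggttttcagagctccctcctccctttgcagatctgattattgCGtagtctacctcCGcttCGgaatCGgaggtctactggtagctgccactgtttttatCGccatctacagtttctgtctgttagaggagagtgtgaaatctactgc
Windows were found for 8 of the 10 genes, 15 in all, 2 of which overlap at Mest. The core of the motif of ZFP57, a factor that keeps methylation at imprinted regions, is TGCCGC, and searched on both strands it occurred in 6 of the 15 windows and in 11.6% of all windows. Among the 4 windows printed it is present in the upstream Igf2 window and in the upstream Grb10 window. Both overlapping Mest windows are among the 6, and no value was used for Zfp57 itself. Other motifs were searched too. The GC box GGGCGG occurred in 9 of the 15 and 35.7% of all windows, and the TATA box TATAAA in 1 and 13.6%. The CTCF core of the H19 control region occurred in 0 and 0.0365%. These shares were not tested and not matched for CG content.

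The deposited values are log2 levels per transcript. They were summed on the linear scale over the transcripts of a gene, and a level below is log2 of that sum plus 1. Whether the authors divided by transcript length is not given in the sources used here, so levels are compared between libraries and not between genes. Depth is unknown because no counts were used. Dmd, the mutated gene, had a log2 level of 4.09 to 4.25 in mdx sln+/- and 4.22 to 4.32 in mdx, against 6.60 and 6.98 in WT. Sln was not analysed here. The Y-linked gene Eif2s3y stood at 1.31 in mdx sln+/- 3 and 0.92 in WT 2, against 3.29 to 6.11 in the other 6 libraries. Results are therefore also given without these 2 libraries, which does not even out Eif2s3y. It was then 3.29 and 4.14 in mdx sln+/- 1 and 2, against 6.11 in WT 1 and 4.01 to 5.91 in mdx. The column names of the first 2 mdx sln+/- and the first 2 mdx libraries follow one style and those of the other 4 libraries, both WT among them, another. The average of mdx sln+/- 2 with mdx 2 matched that of the other 4 dystrophin-deficient libraries to within 5.12e-05 for each transcript. A term of this form had thus been taken out of the deposited values, and limma was fitted with that term. The 6 dystrophin-deficient libraries are therefore not fully free of each other, for Eif2s3y too. Overlaps, orders of libraries and SDs below carry this limit. All 7 cardiomyocyte markers were measured, and their summed linear level was 44611 to 47440 in mdx sln+/-, 45391 to 48526 in mdx and 40103 to 41921 in WT. Myh6 had the highest level of the 7 in every library and weighs most in this sum. Against WT, 0 of the 7 had an adjusted p under 0.05 (limma) in mdx sln+/- or in mdx. Their median log2 fold change was 0.22 and 0.14. Ryr2 was lower in all 6 dystrophin-deficient libraries than in WT, with a log2 fold change of -0.38 in each comparison.

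H19, a long noncoding RNA that is abundant in the fetal heart and low in the adult one, was lower in every mdx sln+/- and every mdx library than in either WT library. Its log2 level was 2.19, 2.00 and 2.15 in mdx sln+/- 1, 2 and 3, and 1.67, 1.95 and 1.90 in mdx 1, 2 and 3. In WT 1 and WT 2 it was 3.83 and 2.90. The 3 groups did not overlap: mdx was lowest, mdx sln+/- lay just above it, and the WT libraries were highest and also farthest apart. On the linear scale the means of mdx sln+/-, mdx and WT were 3.34 ± 0.29, 2.59 ± 0.37 and 9.84 ± 4.79 (SD; n = 3, 3 and 2). The log2 fold change was -1.25 ± 0.27 in mdx sln+/- against WT, or 2.38-fold lower for the sum plus 1 (± gives the standard error from limma here and below). It was -1.52 ± 0.27 in mdx against WT, or 2.88-fold lower on this scale, which understates changes of low genes. In mdx sln+/- against mdx it was 0.27 ± 0.23. Without WT 1, the library with the most H19, these values against WT were -0.78 and -1.06, and without WT 2 they were -1.72 and -1.99. Leaving out WT 2 and mdx sln+/- 3 together gave -1.74 in mdx sln+/- and -2.0 in mdx against WT. Among the 4 libraries of the column name style that includes WT, the differences were -1.21 for the 1 mdx sln+/- library and -1.47 for the 1 mdx library. In whole tissue, fewer cells of a type and less RNA per cell cannot be told apart.

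**Figure D1:**
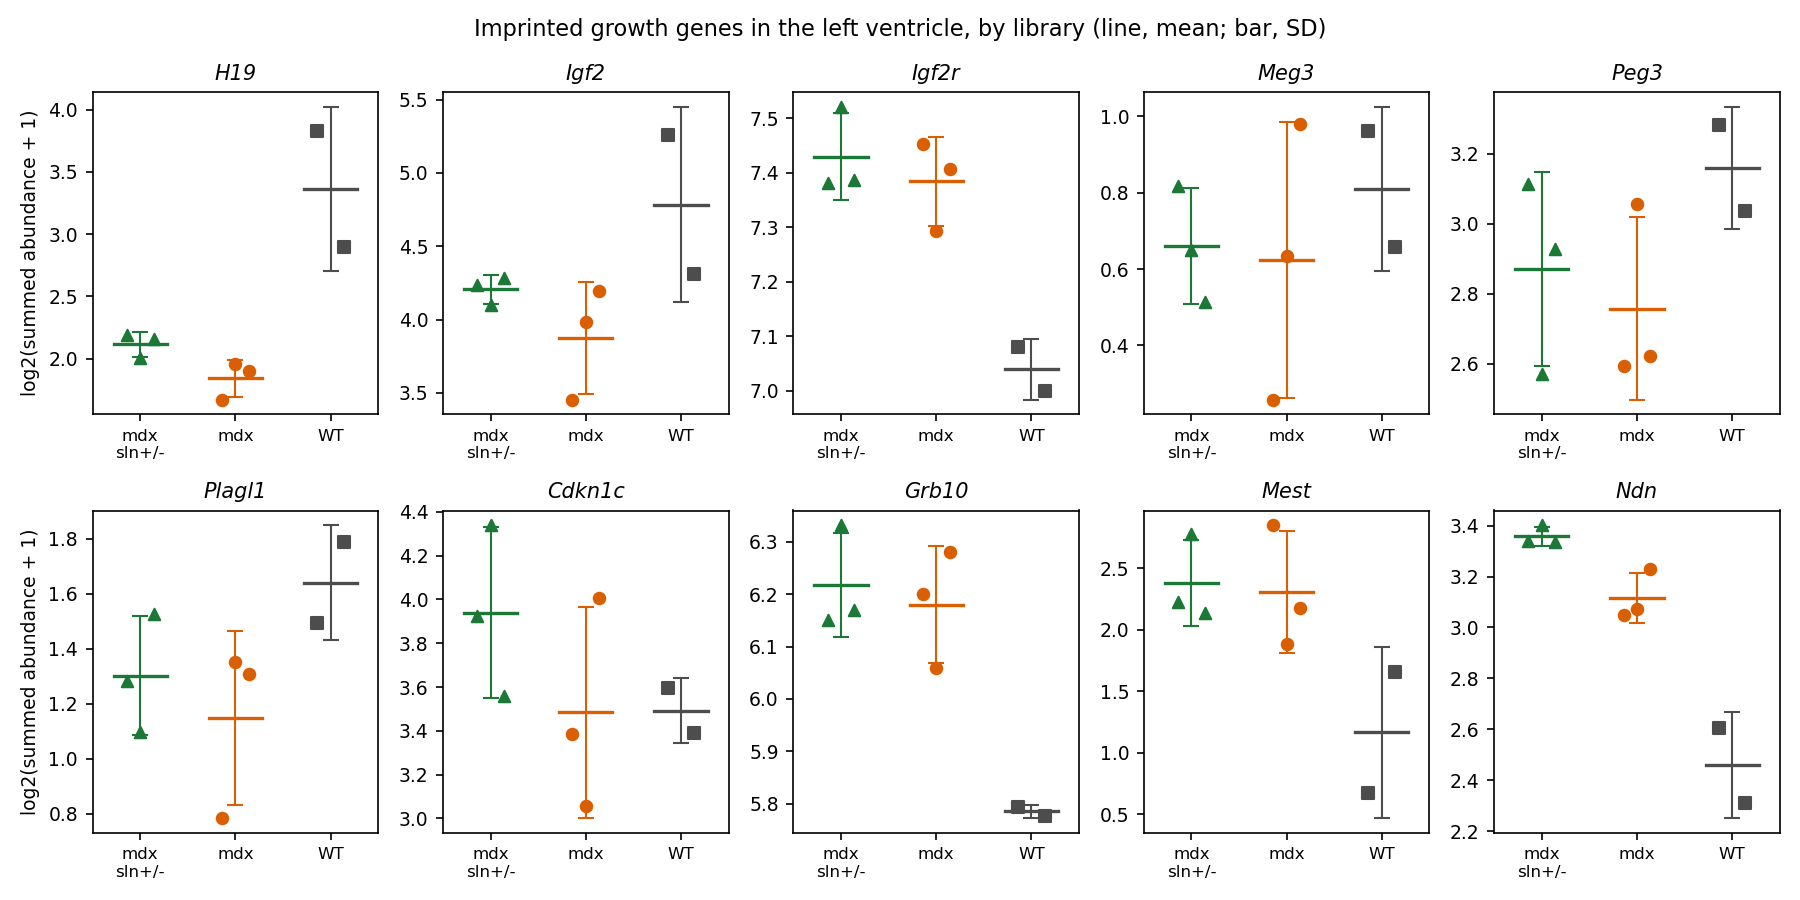
Log2 level (summed abundance plus 1) of the 10 genes in each library, with mdx sln+/- as triangles, mdx as circles and WT as squares; lines are means and bars SD (n = 3, 3 and 2). H19 and Igf2 are lower in all 6 mdx sln+/- and mdx libraries than in both WT libraries, and Igf2r, Grb10, Mest and Ndn are higher in all 6. Each panel has its own axis, which does not begin at 0.

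Of H19, 3 transcripts had values. With the r1 and r2 columns of a library averaged, both mdx groups lay below WT without overlap in each of them. H19-201 and H19-205 were low, at 0.24 to 1.06 and 0.40 to 1.20 over the libraries. In the r2 columns alone H19-205 overlapped, with 1.11 in mdx sln+/- 2 and 1.06 in mdx 1 against 1.04 and 0.81 in WT 1 and WT 2. The longest, H19-202, had log2 values of 1.85, 1.64 and 1.95 in mdx sln+/-, 1.34, 1.75 and 1.64 in mdx, and 3.57 and 2.6 in WT. This transcript carried most of the gene's level and showed the same order of libraries in WT, with WT 1 above WT 2.

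Igf2, the fetal growth factor that acts through the insulin and IGF1 receptors, was lower in both mdx groups than in WT without overlap, but no difference passed the test. Its log2 level was 4.24, 4.10 and 4.28 in mdx sln+/-, 3.45, 3.98 and 4.19 in mdx, and 5.26 and 4.31 in WT. The WT libraries lay as far apart as they did for H19, with WT 1 high and WT 2 only just above the highest mdx sln+/- library. The log2 fold change was -0.58 ± 0.31 in mdx sln+/- against WT (limma, adjusted p = 0.238) and -0.91 ± 0.31 in mdx against WT (adjusted p = 0.0950). Without WT 1 these were -0.11 and -0.43, and without WT 2 they were -1.05 and -1.38. Without mdx 1 the change in mdx was -0.60. With groups alone in the model, which counts 1 degree of freedom too many, the change in mdx was past the threshold (adjusted p = 0.0485). Between mdx sln+/- and mdx the change was 0.33 ± 0.27 (adjusted p = 0.742), with a 95% interval from -0.30 to 0.96, and between 0.086 and 0.51 with a library left out, lowest without mdx 1 and highest without mdx 3. The log2 level of Igf2 minus that of H19 was 2.05, 2.09 and 2.13 in mdx sln+/-, 1.78, 2.03 and 2.30 in mdx, and 1.43 and 1.41 in WT. This difference was larger in all 6 mdx and mdx sln+/- libraries than in WT. Because H19 was chosen with its low level in both mdx groups known, the difference carries that choice and is given as values only. The WT libraries, far apart in each gene alone, were close together in it.

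The transcripts of Igf2 did not move alike. Igf2-201, from the downstream start printed above, had log2 values of 3.43, 3.38 and 3.21 in mdx sln+/-, 2.67, 3.04 and 3.53 in mdx, and 4.57 and 3.81 in WT, so both mdx groups lay below WT. Igf2-202, which starts in the same window, had 1.48, 1.49 and 1.90 in mdx sln+/-, 1.45, 1.73 and 1.6 in mdx, and 2.74 and 1.13 in WT. WT 1 was the highest library for Igf2-202 and WT 2 the lowest, so transcripts that share the downstream window differed in their order too. Igf2-204, from the upstream start, had 1.68, 1.44 and 2.02 in mdx sln+/-, 0.19, 0.87 and 0.72 in mdx, and 1.56 and 1.12 in WT. For this transcript mdx lay below both other groups without overlap, and mdx sln+/- overlapped WT. Of the other 2, Igf2-205 lay below WT in both mdx groups and Igf2-208, a processed transcript, overlapped in every comparison. For Igf2-204 the mdx sln+/- libraries were above the mdx libraries in the r1 and in the r2 columns taken separately. Transcripts of a gene share most of their reads, so how these were divided among them is uncertain, and no test was made at this level.

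**Figure D2:**
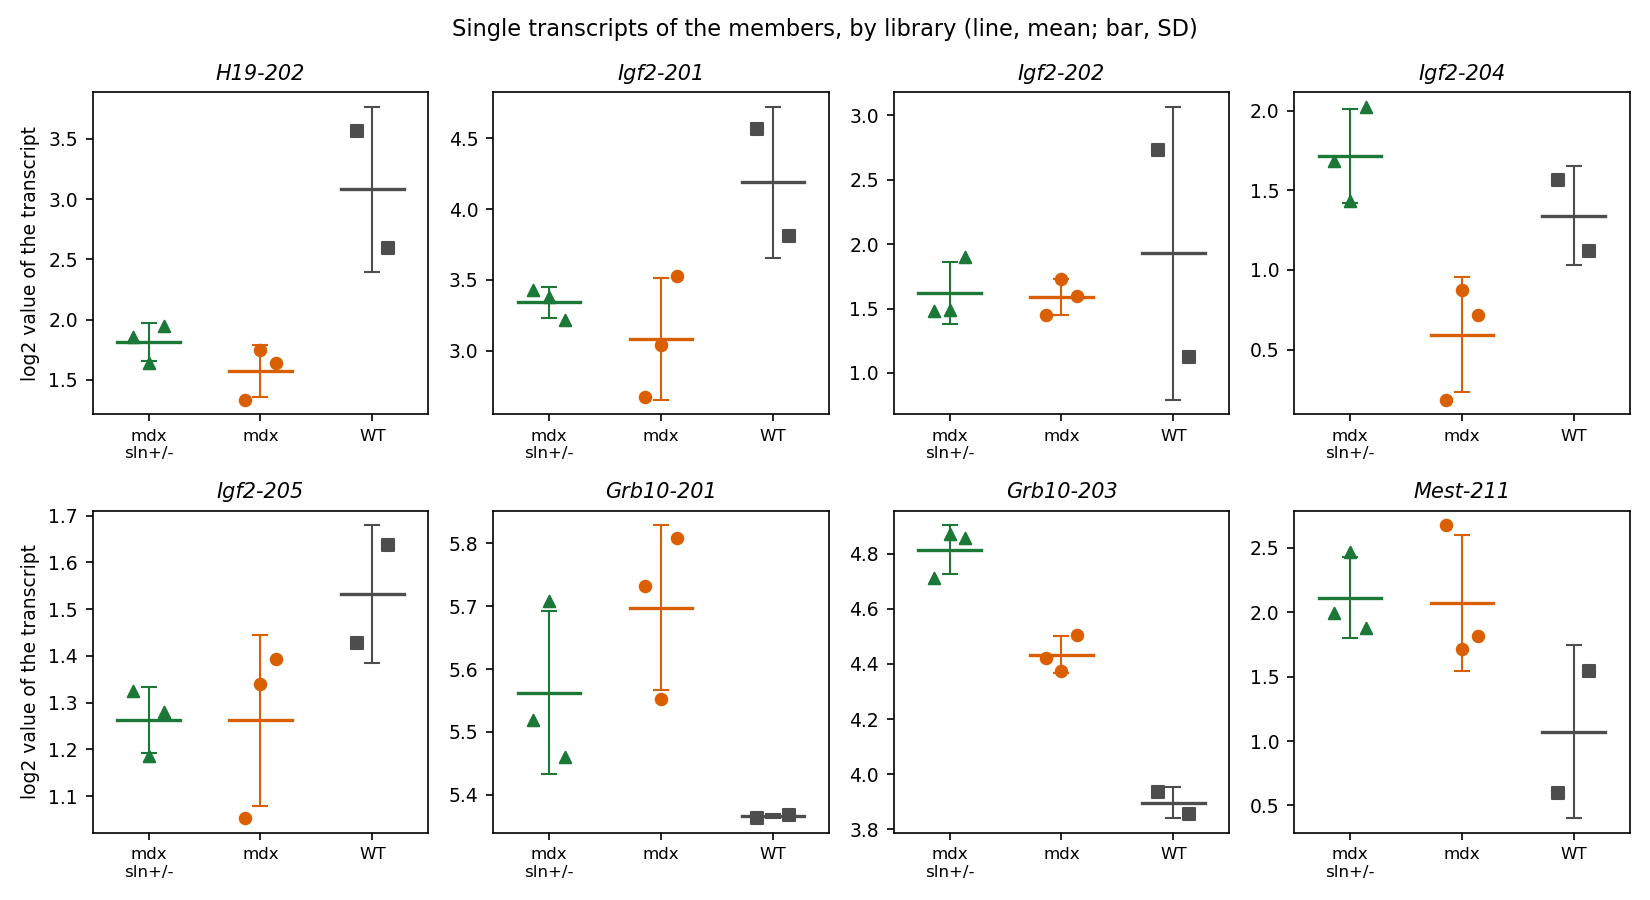
Log2 values of 8 single transcripts in each library (triangles, mdx sln+/-; circles, mdx; squares, WT; lines, means; bars, SD; n = 3, 3 and 2). Igf2-204 and Grb10-203 are higher in all mdx sln+/- libraries than in all mdx libraries, while the other transcripts of these genes that are drawn overlap between the 2 groups. Single transcripts were not tested, and 16.8% of all tested genes also lay above mdx in mdx sln+/- without overlap.

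Igf2r, the receptor that takes up IGF2 and delivers it to the lysosome, rose in both mdx groups. Its gene spans 12682406 to 12769664 on the minus strand of chromosome 17. The log2 level was 7.38, 7.52 and 7.39 in mdx sln+/-, 7.45, 7.29 and 7.41 in mdx, and 7.08 and 7.0 in WT. Both mdx groups lay above WT and overlapped each other. The change was 0.39 ± 0.08 in mdx sln+/- against WT (limma, adjusted p = 0.0245) and 0.34 ± 0.08 in mdx against WT (adjusted p = 0.0359). Between mdx sln+/- and mdx it was 0.05 ± 0.07 (adjusted p = 0.869; 95% interval -0.12 to 0.21). The call against WT in mdx sln+/- was lost without WT 2, mdx sln+/- 1 or mdx sln+/- 3 (adjusted p = 0.0760 to 0.106), and that in mdx without any 1 of WT 1, WT 2, mdx 1, mdx 3, mdx sln+/- 1 and mdx sln+/- 3 (adjusted p = 0.0624 to 0.143). Airn, the antisense RNA that silences the paternal Igf2r copy in mice, overlaps it on the other strand with no shared exon, and its changes of -0.29 ± 0.17 in mdx sln+/- and -0.15 ± 0.17 in mdx against WT did not pass (adjusted p = 0.288 and 0.592).

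Grb10, an adaptor that binds the insulin and IGF1 receptors and dampens their signal, also rose in both mdx groups. It lies on chromosome 11 from 11930508 to 12038683, minus strand. Levels on the log2 scale were 6.15, 6.33 and 6.17 in mdx sln+/-, 6.20, 6.06 and 6.28 in mdx, and 5.79 and 5.78 in WT. The WT libraries were nearly equal and lay below all 6 others. The change was 0.43 ± 0.10 in mdx sln+/- against WT (limma, adjusted p = 0.0257), 0.40 ± 0.10 in mdx against WT (adjusted p = 0.0341) and 0.04 ± 0.08 in mdx sln+/- against mdx (adjusted p = 0.911; 95% interval -0.15 to 0.23). As with Igf2r the calls depended on single libraries. The mdx sln+/- call was lost without WT 1, WT 2, mdx sln+/- 1 or mdx sln+/- 3 (adjusted p = 0.0666 to 0.101), and the mdx call without WT 1, WT 2, mdx 1, mdx 3, mdx sln+/- 1 or mdx sln+/- 3 (adjusted p = 0.0567 to 0.125).

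By start site, the longer Grb10-201 had log2 values of 5.52, 5.71 and 5.46 in mdx sln+/-, 5.73, 5.55 and 5.81 in mdx, and 5.36 and 5.37 in WT. Grb10-203, from the downstream start, had 4.71, 4.87 and 4.86 in mdx sln+/-, 4.42, 4.37 and 4.50 in mdx, and 3.94 and 3.86 in WT. Grb10-203 was thus ordered mdx sln+/-, mdx, WT from high to low with no overlap between any 2 groups, while Grb10-201 overlapped between mdx sln+/- and mdx. In the r2 columns alone Grb10-203 overlapped between mdx sln+/- and mdx.

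Ndn encodes necdin, a protein of the MAGE family that restrains cell division and is best known in neurons and muscle precursor cells. It rose in both mdx groups, and of the 8 tested genes it had the smallest adjusted p against WT in each. The gene lies on chromosome 7 from 62346569 to 62350262, plus strand. On the log2 scale its level was 3.34, 3.40 and 3.34 in mdx sln+/-, 3.05, 3.07 and 3.23 in mdx, and 2.61 and 2.31 in WT. The 3 groups did not overlap, and mdx sln+/- was highest. The change was 0.90 ± 0.12 in mdx sln+/- against WT (limma, adjusted p = 0.00667) and 0.66 ± 0.12 in mdx against WT (adjusted p = 0.0165). Between mdx sln+/- and mdx it was 0.24 ± 0.10, which did not pass (adjusted p = 0.578). The mdx sln+/- call held with each of the 8 libraries left out in turn (adjusted p = 0.0101 to 0.0456), and the mdx call was lost without WT 2 (adjusted p = 0.0683).

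**Figure D3:**
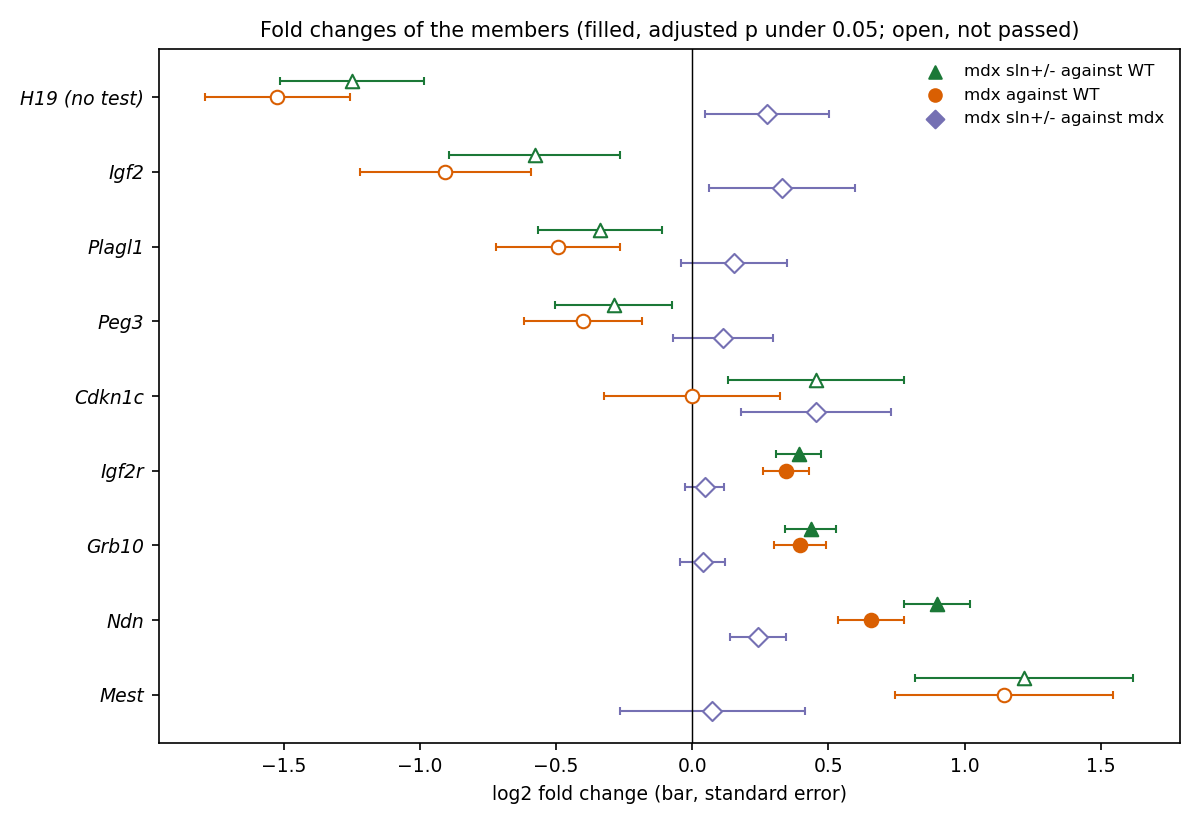
Log2 fold changes of the 9 genes above the filter on low values in 3 comparisons, with bars for the standard error from limma; filled symbols passed an adjusted p under 0.05, open ones did not, and H19 was not tested. Igf2r, Grb10 and Ndn are filled and right of 0 in both comparisons with WT, and no symbol is filled for mdx sln+/- against mdx.

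Mest, an enzyme-like protein of the endoplasmic reticulum that is used as a marker of growing mesoderm, was higher in all 6 mdx sln+/- and mdx libraries but varied too much to pass. Its log2 level was 2.22, 2.78 and 2.13 in mdx sln+/-, 2.85, 1.88 and 2.18 in mdx, and 0.67 and 1.66 in WT. The WT libraries lay below all others but far apart. The change was 1.22 ± 0.40 in mdx sln+/- against WT (limma, adjusted p = 0.0786) and 1.15 ± 0.40 in mdx against WT (adjusted p = 0.0971). Without WT 1 these were 0.73 and 0.65, without WT 2 they were 1.71 and 1.64, and without mdx 1 the change in mdx was 0.76. An exon of Mest overlaps an exon of Copg2 on the other strand, and whether counting used strand is not given in the sources used here.

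Cdkn1c encodes the cyclin-dependent kinase inhibitor p57, a brake on cell division. Its log2 level was 3.92, 4.34 and 3.56 in mdx sln+/-, 3.39, 3.06 and 4.01 in mdx, and 3.60 and 3.39 in WT. All groups overlapped, with the highest level in mdx sln+/- 2 and the lowest in mdx 2. The change was 0.46 ± 0.32 in mdx sln+/- against WT (limma, adjusted p = 0.356) and 0.46 ± 0.28 in mdx sln+/- against mdx (adjusted p = 0.658). The second value was 0.043 without mdx 2 or mdx sln+/- 2, the pair tied by the removed term, and 0.75 without mdx 3. The change in mdx sln+/- against WT was 0.25 without mdx 2 or mdx sln+/- 2 and 0.73 without mdx sln+/- 3. In mdx against WT the 95% interval ran from -0.76 to 0.76.

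Plagl1 and Peg3 encode zinc finger transcription factors, and Plagl1 is known to activate other imprinted genes in mice. Plagl1 had log2 levels of 1.28, 1.10 and 1.53 in mdx sln+/-, 0.78, 1.35 and 1.31 in mdx, and 1.49 and 1.79 in WT, so that mdx lay below WT. Peg3 had 3.11, 2.57 and 2.93 in mdx sln+/-, 2.59, 3.06 and 2.62 in mdx, and 3.28 and 3.04 in WT, with overlap in every comparison. Against WT, Plagl1 changed by -0.34 ± 0.23 in mdx sln+/- and -0.49 ± 0.23 in mdx, and Peg3 by -0.29 ± 0.22 and -0.40 ± 0.22, and none of these passed (limma, adjusted p = 0.183 to 0.379). For Peg3 in mdx the adjusted p was 0.0397 without mdx 2 and 0.0392 without mdx sln+/- 2, the same pair. Meg3, a long noncoding RNA of the Dlk1 region, had log2 levels of 0.82, 0.65 and 0.51 in mdx sln+/-, 0.26, 0.63 and 0.98 in mdx, and 0.96 and 0.66 in WT. Meg3 was under the minimum level for testing, and its groups overlapped in every comparison.

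Of the 8 tested genes besides H19, 3 rose and 0 fell in mdx sln+/- against WT, against a background of 15.9% of all 13783 tested genes called (9.41% higher and 6.5% lower). In mdx against WT the counts were also 3 and 0, with 15.1% of all genes called (8.15% higher and 6.94% lower). Igf2r, Grb10 and Ndn were called in both comparisons, which share the WT libraries. Without overlap between groups, 4 genes were above and 1 below WT in mdx sln+/-, where 59.8% of all genes did not overlap (36.4% above and 23.5% below), and 4 were above and 2 below in mdx, where 51.4% did not (27.8% above and 23.6% below). The median log2 fold change of the 8 was 0.41 in mdx sln+/- and 0.17 in mdx against WT, beside 0.05 and 0.02 over all genes. Between mdx sln+/- and mdx limma called 0 of the 8 and 0.0% of all genes, where 1186 genes and 0 of the 8 had an unadjusted p under 0.05; no other tool was run. In that comparison Ndn alone did not overlap, and 24.8% of all genes did not (16.8% above and 8.0% below). Without WT 2 and mdx sln+/- 3, Igf2r, Grb10 and Ndn changed by 0.38, 0.46 and 0.77 in mdx sln+/- against WT (adjusted p = 0.219, 0.204 and 0.108). In mdx against WT they then changed by 0.31, 0.40 and 0.51 (adjusted p = 0.220, 0.190 and 0.137), so that 0 of the 8 passed in either comparison. That fit has 1 WT library, which is assumed to vary like the others. Within the column name style that includes WT, the log2 differences from WT of Igf2r, Grb10 and Ndn were 0.35, 0.39 and 0.88 in mdx sln+/- 3 and 0.37, 0.50 and 0.77 in mdx 3.

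Markers of other cells moved in the same comparisons. Of 8 macrophage markers 2 rose in mdx sln+/- and 2 in mdx against WT, Adgre1 in both by 0.76 ± 0.16 and 0.78 ± 0.16 (adjusted p = 0.0246 and 0.0235), and their summed linear level was 161 to 209 in mdx sln+/-, 159 to 212 in mdx and 143 to 144 in WT. Cd163, another of these markers, did not pass, at -0.47 ± 0.26 in mdx sln+/- and -0.80 ± 0.26 in mdx against WT. Of 7 endothelial markers Emcn and Tek rose in both comparisons, with a summed level of 629 to 687 in mdx sln+/-, 604 to 703 in mdx and 467 to 607 in WT. Pecam1, an endothelial marker too, was lower in all 6 libraries than in WT and did not pass, at -0.24 ± 0.09 in each comparison. Among 7 markers of smooth muscle and pericytes, 0 rose in mdx sln+/- and Notch3 and Cspg4 rose in mdx. The summed level of the 7 was 624 to 778 in mdx sln+/-, 632 to 825 in mdx and 575 to 579 in WT. Rgs5 and Pdgfrb had changes above 0 and Acta2 and Tagln changes below 0 in both comparisons, and none of these passed. Acta2 was at -0.58 ± 0.38 in mdx sln+/- and -0.48 ± 0.38 in mdx, and Tagln at -0.97 ± 0.47 and -0.28 ± 0.47. Myh11 did not pass either, at -0.47 ± 0.46 and 0.03 ± 0.46. Col1a1 alone rose of 8 fibroblast markers in both comparisons, and the summed level was 1156 to 1264 in mdx sln+/-, 1059 to 1182 in mdx and 870 to 1431 in WT. Plin4 was the 1 gene with values of 4 listed for adipocytes, and no value was used for Adipoq, Cfd and Plin1. It fell by 1.19 ± 0.24 in mdx sln+/- and by 1.18 ± 0.24 in mdx (limma, adjusted p = 0.0202 and 0.0212). The linear level of Plin4 alone was 153 to 239 in mdx sln+/-, 161 to 233 in mdx and 390 to 511 in WT. Whether adipocytes changed cannot be read from this 1 gene. Ighm, the tested lymphocyte marker, rose by 0.86 ± 0.19 and 0.70 ± 0.19 (adjusted p = 0.0255 and 0.0471). Each call on the markers of other cells was lost without WT 2, and also without WT 2 and mdx sln+/- 3 together. No value was used for Pax7, Myf5, Myod1, Myog, Myh3 and Myh8, and Ncam1, the measured member of the list of myoblasts and regenerating muscle, did not pass in any comparison. Ncam1 was lower in all 6 libraries than in WT, at -0.52 ± 0.19 in mdx sln+/- and -0.58 ± 0.19 in mdx against WT. The part of these cell types in the levels of the imprinted genes was not tested.

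Around the 10 genes, 15 other genes with values lie within 100 kb, and 1 of them passed against WT. This was Zim1, an imprinted zinc finger gene next to Peg3, with log2 levels of 1.43, 1.41 and 1.33 in mdx sln+/-, 1.10, 1.18 and 1.33 in mdx, and 0.73 and 0.70 in WT. It rose by 0.67 ± 0.12 in mdx sln+/- (limma, adjusted p = 0.0145) and 0.49 ± 0.12 in mdx (adjusted p = 0.0370) against WT, while Peg3 itself did not pass. The mdx sln+/- call was lost without WT 2, mdx sln+/- 1 or mdx sln+/- 3, and the mdx call without any library but mdx 1, with an adjusted p of up to 0.0950 and 0.125. None of the 15 was called in mdx sln+/- against mdx. Next to H19, Lsp1 and Prr33 did not pass in any comparison.

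A list of 68 other imprinted genes, of which 39 were tested, had 4 genes that rose and 2 that fell in mdx sln+/- against WT, and 3 and 2 in mdx against WT. These are 15.4% and 12.8% of the list, no more than the 15.9% and 15.1% called over all genes. Its median log2 fold change was 0.01 in mdx sln+/- and -0.02 in mdx. Cobl, an actin nucleator of the Grb10 region, rose by 0.77 ± 0.09 in mdx sln+/- and 0.73 ± 0.09 in mdx against WT (limma, adjusted p = 0.00575 and 0.00630). The log2 level of Cobl was 2.89, 2.79 and 2.80 in mdx sln+/-, 2.77, 2.82 and 2.76 in mdx, and 2.01 and 2.10 in WT. Inpp5f, a phosphoinositide phosphatase with an imprinted variant in mice, fell by 0.85 ± 0.11 in mdx sln+/- and by 0.75 ± 0.11 in mdx (adjusted p = 0.00664 and 0.00905). Both genes passed in both comparisons with each library left out in turn, but not without WT 2 and mdx sln+/- 3 together (Cobl, adjusted p = 0.0909 and 0.0677; Inpp5f, 0.0831 and 0.0636), and Inpp5f in mdx did not pass in the fit of mdx and WT alone (adjusted p = 0.0537). Cd81, a membrane tetraspanin, rose in both comparisons, Commd1 in mdx sln+/- and Zim1 as above, and Pon3, a paraoxonase, fell in both. The calls of Cd81, Commd1 and Pon3 were each lost without at least 3 single libraries.

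Of 23 tested genes of the IGF axis, which links IGF2 to its carriers, receptors and downstream kinases, 1 rose and 2 fell in mdx sln+/- against WT, and 2 rose and 2 fell in mdx. With 13% and 17.4% called, the list was close to all genes. Igfals, the carrier subunit that keeps IGFs in the circulation, had log2 levels of 2.76, 2.84 and 2.69 in mdx sln+/-, 2.66, 2.40 and 2.38 in mdx, and 1.79 and 1.84 in WT. It rose by 0.94 ± 0.12 in mdx sln+/- and 0.67 ± 0.12 in mdx (limma, adjusted p = 0.00660 and 0.0167), the mdx call being lost without WT 1 or WT 2 (adjusted p up to 0.0632). Foxo1, the transcription factor that insulin and IGF signals keep out of the nucleus, fell by 0.54 ± 0.11 in mdx sln+/- and by 0.70 ± 0.11 in mdx (adjusted p = 0.0204 and 0.0100). Its mdx call held with each library left out but not without WT 2 and mdx sln+/- 3 together (adjusted p = 0.0786), and its mdx sln+/- call was lost without WT 1, WT 2, mdx sln+/- 1 or mdx sln+/- 3 (adjusted p up to 0.111). Pik3r1, the regulatory subunit of PI3-kinase, fell by 0.91 ± 0.21 in mdx sln+/- and by 0.95 ± 0.21 in mdx (adjusted p = 0.0284 and 0.0254); these calls were lost without WT 1, WT 2, mdx sln+/- 1 or mdx sln+/- 3, and without WT 1, WT 2 or mdx 1. Igf2bp2, which binds Igf2 mRNA, rose in mdx by 0.64 ± 0.15 (adjusted p = 0.0330), a call lost without WT 2, mdx 1, mdx 3, mdx sln+/- 1 or mdx sln+/- 3 (adjusted p up to 0.130).

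**Figure D4:**
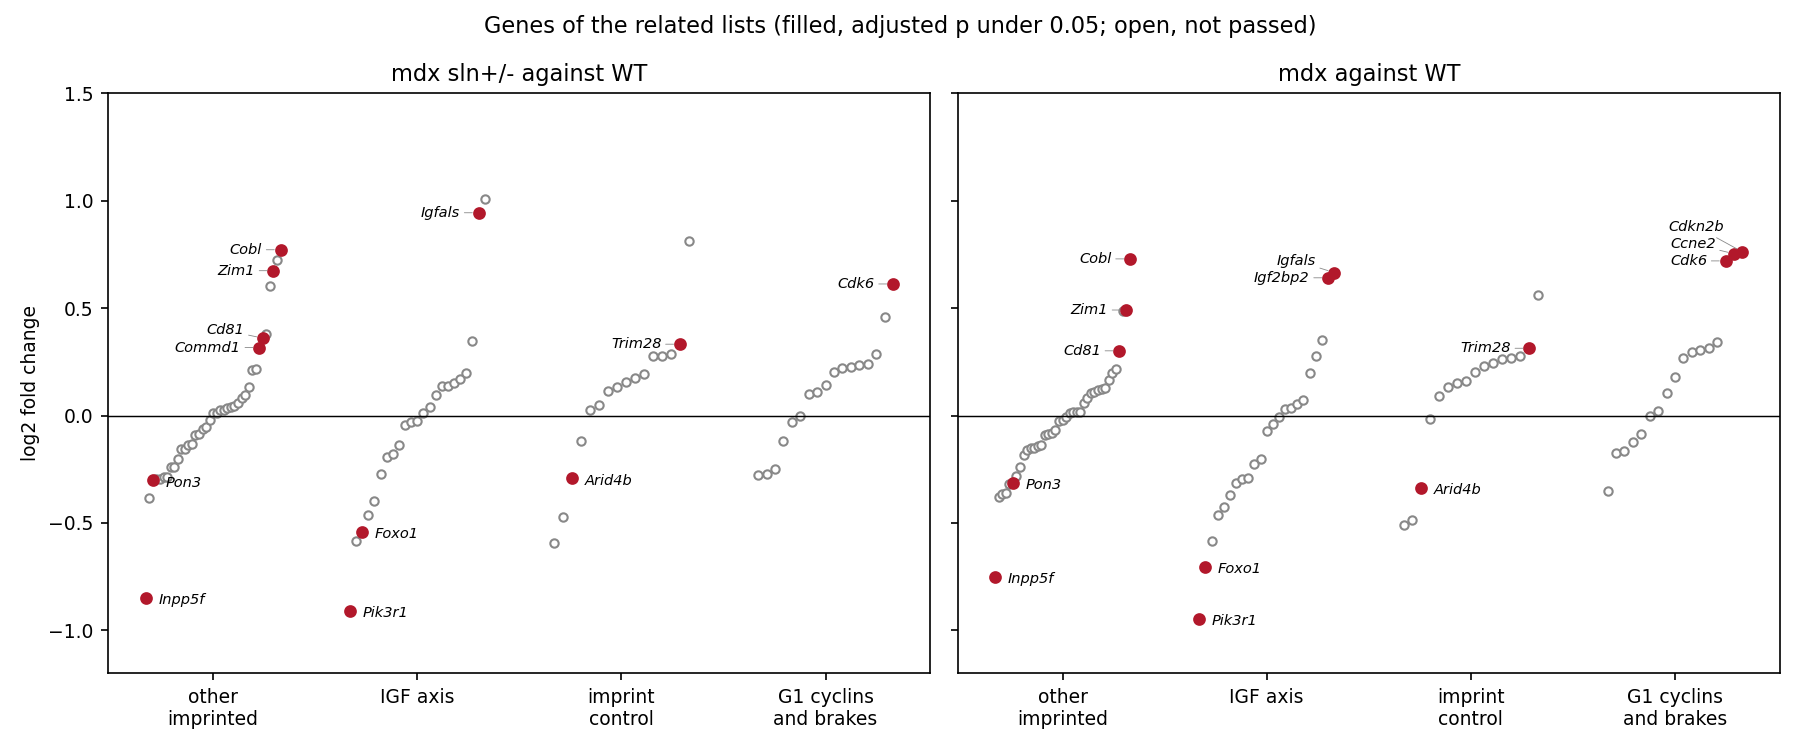
Log2 fold changes against WT of the tested genes of 4 related lists, sorted within each list, in mdx sln+/- (left) and mdx (right); filled points passed an adjusted p under 0.05 (limma) and are named. Most genes of each list are open and lie on both sides of 0, and Cobl, Inpp5f, Igfals, Foxo1, Pik3r1 and Cdk6 are filled in both panels.

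Of 16 tested genes that read or maintain imprints and DNA methylation, 1 rose and 1 fell in each comparison with WT, which is 12.5% of the list and under the share of all genes called. Trim28, the corepressor recruited to imprinted regions by ZFP57, rose by 0.33 ± 0.08 in mdx sln+/- and 0.31 ± 0.08 in mdx (limma, adjusted p = 0.0321 and 0.0383). Arid4b, a chromatin protein involved in imprint maintenance in mice, fell by 0.29 ± 0.08 in mdx sln+/- and by 0.34 ± 0.08 in mdx (adjusted p = 0.0426 and 0.0291). Each of these 4 calls was lost without any 1 of at least 5 libraries. Of 17 tested G1 cyclins and cell cycle brakes, the group to which Cdkn1c belongs by function, Cdk6 rose in both comparisons, by 0.61 ± 0.09 in mdx sln+/- and 0.72 ± 0.09 in mdx (adjusted p = 0.00768 and 0.00503). The mdx sln+/- call of Cdk6 was lost without mdx sln+/- 1 (adjusted p = 0.0561). Cdkn2b and Ccne2 rose in mdx alone among the 2 comparisons (adjusted p = 0.0220 and 0.0328), and whether their changes differ between them is the comparison of mdx sln+/- with mdx, in which neither passed (adjusted p = 0.578 for both). These mdx calls were lost without WT 1, WT 2, mdx 1 or mdx sln+/- 1 for Cdkn2b and without any library but WT 2 for Ccne2. Of the 17 genes, 5.88% were called in mdx sln+/- and 17.6% in mdx. Without WT 2 and mdx sln+/- 3 no call against WT in the 4 lists was kept, and none of their genes was called in mdx sln+/- against mdx.

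The 5 named genes whose levels followed that of H19 most closely were AC154806.2, Ociad2, Rps3a1, Tmem56 and Hist2h2be. Likeness was measured as the root mean square difference of log2 levels centred on the gene's mean over the 8 libraries, which was 0.108, 0.174, 0.176, 0.177 and 0.202 for these 5, beside a median of 0.680 over the 11723 genes compared. AC154806.2 had log2 levels of 3.70, 3.37 and 3.61 in mdx sln+/-, 3.07, 3.53 and 3.42 in mdx, and 5.07 and 4.21 in WT. It shared with H19 the low value in mdx 1 and the higher level in WT 1 than in WT 2. Rps3a1, a ribosomal protein gene, has near-identical copies in the genome, so its level is uncertain. Among the imprinted genes Igf2 came closest, at rank 27 with a difference of 0.308. Peg3 and Plagl1 stood at ranks 651 and 1037, and Mest was the least like H19 of the 8, at rank 11655. All 8 libraries are shared between these genes, so the ranks describe these libraries.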

How the data were processed

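Left ventricular RNA was sequenced in 3 mdx sln+/-, 3 mdx and 2 WT libraries, grouped by the genotype in the labels. STAR 2.6.1, Partek and limma were used with mm10, per the submitters' processing notes. The authors deposited log2 values of 33027 transcripts in 16 columns, r1 and r2 for each library, per the file headers. Their range fits log2 of a normalized abundance plus 1, and what r1 and r2 stand for is not given in the sources used here. The 2 columns of a library correlated at 0.981 to 0.987 and were averaged, linear abundances were summed per gene, and log2(sum + 1) was tested, a scale that understates changes of low genes. Library sums were 780262 to 924253. Genes at 1 or more in at least 2 libraries were tested (13783), and 795, Meg3 among them, were left out.

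A single limma fit (limma 3.58.1, R 4.3.3; lmFit, eBayes with trend) held all 8 libraries, the group and the removed term (mdx 2 and mdx sln+/- 2), with 4 residual degrees of freedom, a median prior of 3.37 degrees of freedom and Benjamini-Hochberg adjustment per comparison at 0.05. The contrast of the term was at most 5.12e-05 in any transcript, whereas other such contrasts had an SD of 0.127 to 0.199. On simulated data of 13783 genes the unchanged genes among this fit's calls were 14 of 402 in mdx sln+/- against WT. They were 7 of 198 in mdx against WT and 4 of 200 in mdx sln+/- against mdx. With groups alone they were 120 of 516, 45 of 243 and 22 of 218. The simulated noise was independent, the term removed was the one fitted, and the planted changes exceeded those of Igf2r, Grb10 and Ndn. These counts therefore do not give the share of false calls in the deposited data.

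The genes, the lists and the rule for named genes were chosen with earlier results of these data known. The rule names the 10 genes, their transcripts with a group mean of at least 1 on the log2 scale, up to 4 called genes per list and direction, called genes within 100 kb and the 5 genes most like H19. H19-201 is counted outside that rule. Positions come from GENCODE M21 (GRCm38), in which 32946 transcripts were found by ID, 31829 of them within 1 base at both ends. Sequences come from RefSeq (GRCm38.p6). Alternatives were scaling, pseudocount, filters, r1 or r2 alone, groups alone, column name style, a replicate block, fits of 2 groups, the highest transcript and leaving out libraries. The values cannot show whether same-numbered libraries form pairs, because the removed term ties mdx 2 to mdx sln+/- 2. The main fit did not use the numbers as pairs.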

Additional observations from a re-analysis of the deposited data

How the results depend on the processing

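The direction against WT of H19, Igf2, Igf2r, Peg3, Plagl1, Grb10, Mest and Ndn was the same under all alternatives. In mdx sln+/- against mdx that of H19, Igf2, Cdkn1c and Ndn was the same under all alternatives. Plagl1 was under the filter of at least 4 and has no value there. In mdx sln+/- against WT 2193 genes were called (1297 higher, 896 lower), and in mdx against WT 2080 (1123 higher, 957 lower). Median-ratio scaling gave 928 higher and 1147 lower in mdx sln+/- and 1002 and 1094 in mdx, and upper-quartile scaling 1023 and 1031 in mdx sln+/-; the median shift of all genes stayed under 0.1. With groups alone 3996 and 3798 genes were called, with column name style as a further term 711 and 559, with 1 and 0 of the 8 imprinted genes, and without WT 2 and mdx sln+/- 3, 66 and 154, with 0 and 0. A fit of mdx and WT alone called 529 genes and 0 of the 8. In that fit mdx 2 alone carries the removed term, so its changes rest on mdx 1 and mdx 3 against WT. Leaving out 1 library gave 316 to 2402 genes and 1 to 3 of the 8 in mdx sln+/- against WT, and 638 to 1811 genes and 0 to 4 of the 8 in mdx against WT. H19 changed by -1.74 in mdx sln+/- against WT without WT 2 and mdx sln+/- 3. The causes were not tested, and fits with libraries left out also hold fewer libraries.

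Changes that did not pass turned sign under some alternatives. Cdkn1c in mdx against WT, at -0.00075, was 0.0015 in the r2 columns, 0.064 with column name style, 0.21 in the fit of 2 groups and 0.025 for the highest transcript, and -0.37 to 0.21 with a library left out. In mdx sln+/- against mdx, Grb10 was -0.011 in the r1 columns and -0.13 for the highest transcript. With a library left out, Grb10 ranged from -0.080 to 0.094, Igf2r from -0.046 to 0.085, Peg3 from -0.026 to 0.41, Plagl1 from -0.055 to 0.36 and Mest from -0.34 to 0.38. For the called genes, Grb10 in the r1 columns (adjusted p = 0.0608 in mdx sln+/- and 0.0587 in mdx against WT), Grb10 by its highest transcript (0.272 and 0.0977) and Igf2r in mdx in the r2 columns (0.0607) lost their calls. Mest in mdx sln+/- against WT passed in the r2 columns (0.0425) and with groups alone (0.0398).

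The replicate block in place of the removed term called 2363 genes in mdx sln+/- against WT, 2397 in mdx against WT and 0 in mdx sln+/- against mdx, and 3, 3 and 0 of the 8. Same-numbered libraries deviated with correlations of -0.00452 and -0.180 between mdx sln+/- and WT, and 0.148 and 0.180 between mdx and WT. Between mdx sln+/- and mdx they were -0.264, -0.996 and -0.311, the -0.996 being fixed by the removed term. Centring on groups of 2 or 3 libraries ties the other values too, so these correlations cannot show whether the numbers pair libraries. With 2 WT libraries, 1 library decides much of each value against WT, and depth, being unknown, gives no further limit.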
